A study of Homo sapiens with 8 samples.

Results

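The genes of drug metabolism and drug transport were followed in an m6A comparison of CSTF2-knockout and parental HUH7 and PLC/PRF/5 cells, which are human lines from liver cancer. Members were taken by gene name: cytochrome P450 genes (CYP, with CYP51A1 left out), the glucuronosyltransferases of UGT1A, UGT2A and UGT2B, the sulfotransferases (SULT), the glutathione S-transferases (GST and MGST), the SLCO transporters, and the ABCA, ABCB, ABCC and ABCG transporters, without pseudogenes. Of 12058 gene names with a value in either line, 62 were members. They made up 55 of 10447 genes in HUH7 and 22 of 5477 genes in PLC/PRF/5, and 15 had a value in both. CYP51A1, an enzyme of sterol synthesis, was the only name that matched the families and was left out.

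The study held 8 libraries in 8 groups of 1: an m6A immunoprecipitate and an input from HUH7 cells with a CRISPR-Cas9 knockout of CSTF2, the same pair from parental HUH7 cells, and both pairs again from knockout and parental PLC/PRF/5 cells. No treatment besides the knockout is given in the labels, and whether a knockout line was 1 clone is not given in the sources used here. The CSTF2 protein belongs to the complex that directs cleavage of new transcripts before the poly(A) tail is added. MeRIP-seq pulls down fragments of RNA with an antibody against N6-methyladenosine (m6A) and sequences them beside the input. The values are the authors' log2 fold changes, and which genotype is the numerator is not stated in the header. Signs are therefore given as deposited, and a positive value is not assigned to knockout or parental cells. Without replicates, counts or p-values there is no test, no error and no known depth behind any value, and each group of genes is set beside the whole column.

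Drug metabolism is described in 3 phases. In phase I, cytochrome P450 enzymes oxidise a compound. In phase II, transferases attach glucuronic acid, sulfate or glutathione to it, and in phase III transporters move the conjugates out of the cell. Hepatocytes are a main site of these pathways, and nuclear receptors that sense foreign compounds control many of the genes. The families also hold members with other tasks: several P450 enzymes act on vitamin D, retinoic acid, sterols or fatty acids, the ABCA transporters carry lipids, some ABCB transporters sit in mitochondria, and the SLCO transporters mostly take compounds up.

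The table lists genes with a value and gives no expression level, so the cell type of the lines cannot be checked against it. Of 10 hepatocyte markers, 6 had a value in HUH7 and 8 in PLC/PRF/5, against 6 and 3 of 10 markers of other cell types. CSTF2 itself had a value in PLC/PRF/5 alone, -0.50 in the authors' deposited table, which is no check of the knockout.

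The share of genes with a value was lower for the members than for protein-coding genes at large, and it differed by family. RefSeq (GRCh38.p14) holds 155 protein-coding genes that meet the rule. Of these, 35.5% had a value in HUH7 and 14.2% in PLC/PRF/5, against 50.3% and 23.4% of all 20056 protein-coding genes. Phase I was listed least, with 13 of 54 P450 genes (24.1%) in HUH7 and 3 (5.56%) in PLC/PRF/5. Phase II had 19 of 53 genes (35.8%) in HUH7 and 9 (17.0%) in PLC/PRF/5, and phase III had 23 of 48 (47.9%) and 10 (20.8%). Among the glucuronosyltransferases, 5 of 9 UGT1A and 5 of 10 UGT2 genes had a value in HUH7, whereas in PLC/PRF/5 all 9 UGT1A genes and 0 UGT2 genes did. SULT and GST genes had values for 3 of 13 and 6 of 21 genes in HUH7 and for none in PLC/PRF/5. What decides whether a gene is listed is not given in the sources used here.

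In HUH7 the members as a whole lay close to the column. Positive values were found for 37 of 55 members (67.3%), against 60.8% of all genes, and negative values for 18. The median was 0.15 over the members and 0.20 over all genes, and the middle 50% of the members ran from -0.38 to 1.25, against -0.36 to 0.87. A minimum size of 1 on the log2 scale was used to count large values. A log2 fold change of 1 or more was held by 15 members (27.3%), against 22.2% of all genes. A value of -1 or less was held by 10 members (18.2%), against 14.6% of all genes. Of the members nearest this limit, MGST2 (-1.002) and ABCC5 (1.14) reached it and CYP2J2 (0.97) and ABCC10 (0.92) did not in the authors' deposited table.

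A number of HUH7 genes shared exactly the same extreme value. A value is called repeated when 10 or more genes hold it to 6 decimals and its size is above 1. There were 16 such levels, 8 positive and 8 negative, and on the linear scale each set of 8 stood in the ratios of the whole numbers 3 to 10. Repeated values were held by 10 members (18.2%), against 12.6% of all genes: 4 of the 55 members were at a positive one (against 4.70% of all genes) and 6 at a negative one (against 7.89%). They were spread unevenly over the phases. Phase I held 4, all negative, phase II held 3 positive and 2 negative, all of them glucuronosyltransferases, and phase III held 1, which was positive. Thus 5 of 10 UGT genes and 4 of 13 P450 genes (30.8%) had a repeated value, but only 1 of 19 ABC genes (5.26%) and 0 of the 13 SULT, GST and SLCO genes. Sizes among repeated values are not ranked here, because 1315 genes in the column sit on these 16 levels.

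**Figure D1:**
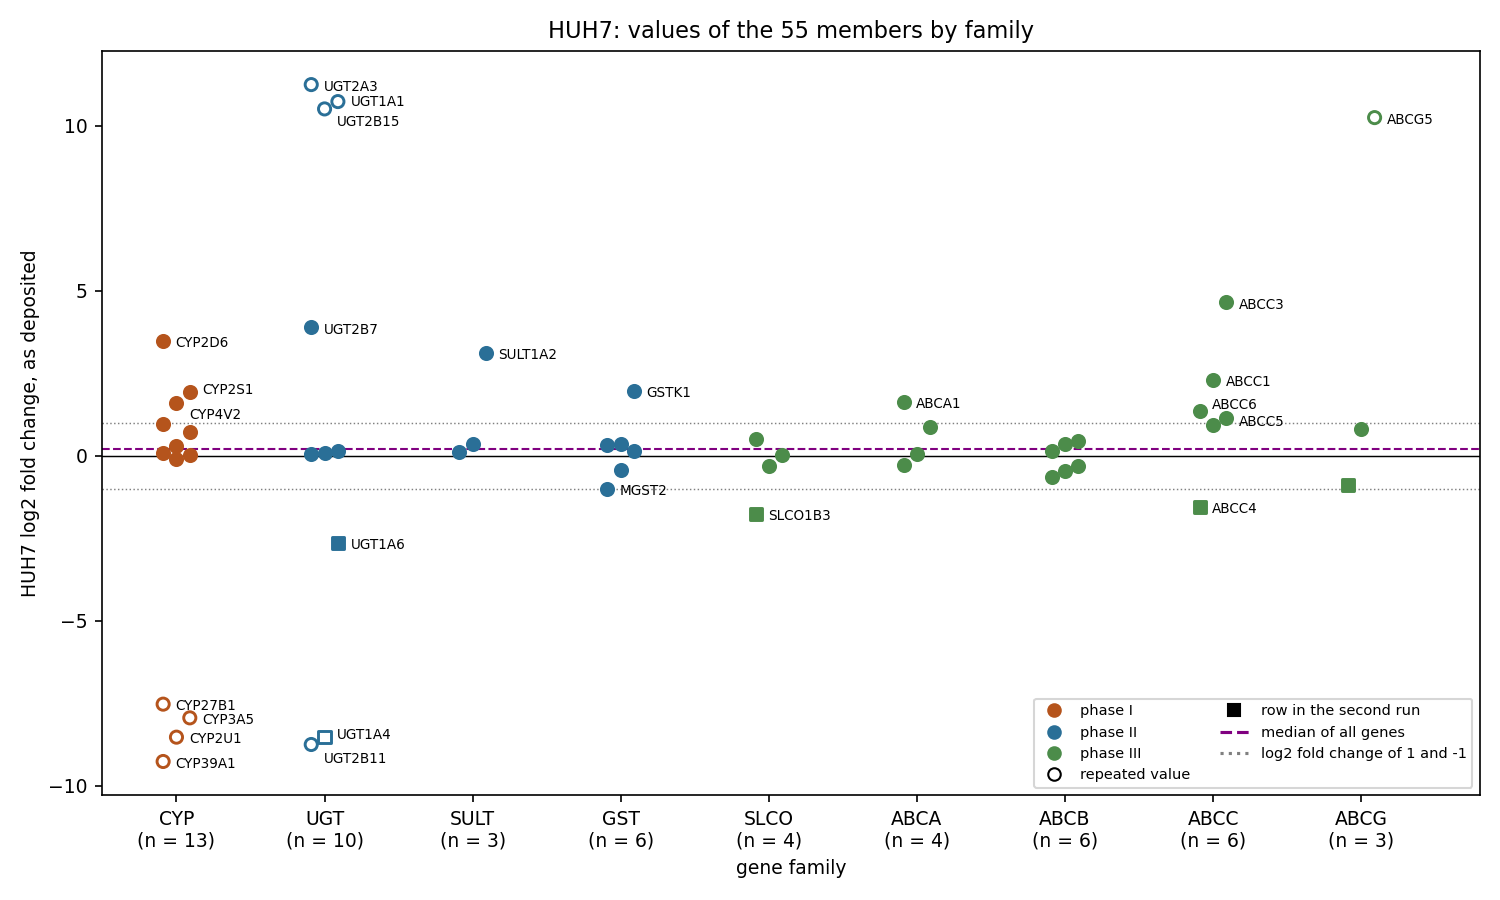
HUH7 log2 fold changes as deposited (vertical axis) for the 55 members, by family. Open marks are repeated values, squares are rows in the second run of the column, the dashed line is the median of all genes and dotted lines mark 1 and -1. Repeated values lie among CYP, UGT and ABCG genes. The 6 ABCB genes all lie between -1 and 1, as do 63.1% of all genes.

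The order of the HUH7 rows set 5 negative members apart. The column passed through the chromosomes in order over 9968 rows and then through them again over 479 rows. Of the 479 genes in the second run, 432 were negative, with a median of -2.27, against 3656 of 9968 in the first run, with a median of 0.24. In the second run lay 5 members, UGT1A4 (-8.53), UGT1A6 (-2.65), SLCO1B3 (-1.76), ABCC4 (-1.54) and ABCG2 (-0.90) in the authors' deposited table, and all 5 were negative. They made up 9.09% of the members, against 4.59% of all genes. Without the second run, 37 of 50 members were positive (74%, against 63.3% of all genes of the first run) and 13 negative. A value of -1 or less was then held by 6 rather than 10 members, which is 12%, the same share as over all genes of the first run. What the second run stands for is not given in the sources used here, and its part in the negative values was not tested.

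Phase I in HUH7 divided into 4 genes at large negative repeated values and 9 genes from -0.10 upward. The 4 were CYP39A1 (-9.27), an enzyme of oxysterol breakdown toward bile acids, CYP2U1 (-8.53), a fatty acid hydroxylase, CYP3A5 (-7.94), a main drug-oxidising enzyme, and CYP27B1 (-7.53), which makes the hormone form of vitamin D, in the authors' deposited table. They share their levels with 104, 108, 104 and 102 genes of the column, themselves included. At the top stood CYP2D6 (3.47), which oxidises many antidepressants and opioids, ahead of CYP2S1 (1.93), an enzyme inducible through the aryl hydrocarbon receptor, and CYP4V2 (1.60), a fatty acid hydroxylase, in the authors' deposited table. CYP2D6 lies beside a close pseudogene copy, CYP2D7, so its reads are uncertain.

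The other 6 P450 genes lay between -1 and 1. CYP2J2 (0.97), an arachidonic acid epoxygenase, and CYP26B1 (0.71), which breaks down retinoic acid, were the largest of these in the authors' deposited table. CYP1A1, the classic target of the aryl hydrocarbon receptor, had 0.28 and CYP2W1 0.07 in the authors' deposited table. The vitamin D enzyme CYP2R1, which acts in the step before CYP27B1, had 0.01, and the leukotriene hydroxylase CYP4F3 had -0.10 in the authors' deposited table. The P450 median was 0.07 over all 13 genes, against 0.20 over all genes of the column. It was 0.71 over the 9 unrepeated P450 genes, against 0.23 over all unrepeated genes. Of these 9, 8 were positive, against 64.2% of all unrepeated genes. All 4 repeated P450 values were negative, so leaving them out removes negative values only.

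Phase II in HUH7 held large values of both signs, most of them glucuronosyltransferases. UGT2A3 (11.24), UGT1A1 (10.73), the enzyme that conjugates bilirubin, and UGT2B15 (10.50), which conjugates steroids and drugs, had positive repeated values in the authors' deposited table. UGT2B11 (-8.75) and UGT1A4 (-8.53), which conjugates amines, had negative ones in the authors' deposited table. Among unrepeated values, UGT2B7, which conjugates morphine, had 3.89 and UGT1A6, which conjugates small phenols, had -2.65 in the authors' deposited table. UGT2B4 (0.13), active on bile acids, UGT1A9 (0.09) and UGT1A8 (0.06) lay near 0 in the authors' deposited table. The 10 UGT genes comprised 7 positive and 3 negative values with a median of 0.11, beside 60.8% positive and a median of 0.20 over all genes. Of the 10, 4 had a value of 1 or more and 3 one of -1 or less, beside 22.2% and 14.6% of all genes, and 5 of these 7 large values were repeated ones.

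The sulfotransferases and glutathione S-transferases varied less. SULT1A2 (3.11) stood above SULT1A1 (0.35), both conjugating phenols, and SULT1C4 (0.12) in the authors' deposited table. The 3 SULT values were all positive, and reads of SULT1A genes may be shared, since they are near-identical copies. GSTK1, found in mitochondria and peroxisomes, had 1.95 and MGST2, a membrane enzyme that can form leukotriene C4, had -1.002 in the authors' deposited table. The other GST genes lay closer to 0: MGST1 (0.36), GSTO1 (0.31), GSTO2 (0.15) and GSTM3 (-0.45) in the authors' deposited table. The 9 phase II genes outside UGT had 7 positive and 2 negative values with a median of 0.31, and none was repeated. Over all unrepeated genes, 64.2% were positive and the median was 0.23.

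Phase III in HUH7 was led by the ABCC transporters, which export conjugates. Of 6 ABCC genes, 4 had a value of 1 or more (66.7%, against 22.2% of all genes), and the median was 1.25. ABCC3 (4.64), which moves conjugates from hepatocytes back into blood, had the largest unrepeated value of all members, followed within the family by ABCC1 (2.30), a broad exporter of glutathione conjugates, ABCC6 (1.36) and the nucleotide exporter ABCC5 (1.14) in the authors' deposited table. ABCC10 had 0.92 and ABCC4, an exporter of cyclic nucleotides and bile acids, had -1.54 in the authors' deposited table. ABCC6 has pseudogene copies on the same chromosome, so its value is uncertain. With 6 genes, these counts describe the family and test nothing about it.

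The 6 ABCB genes all lay between -1 and 1, as did 63.1% of all genes, with a median of -0.09. This too describes 6 genes and tests nothing about the family. The bile salt export pump gene ABCB11 had 0.43, and the mitochondrial transporter genes ABCB8 and ABCB10 had 0.34 and 0.14 in the authors' deposited table. ABCB1, which encodes P-glycoprotein, had -0.32, the lysosomal peptide transporter gene ABCB9 had -0.48 and the porphyrin transporter gene ABCB6 had -0.66 in the authors' deposited table. Of the lipid transporters, ABCA1 (1.63), which loads cholesterol onto apolipoproteins, lay above ABCA7 (0.87), ABCA2 (0.05) and the surfactant lipid transporter ABCA3 (-0.27) in the authors' deposited table.

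The ABCG and SLCO genes went both ways. ABCG5 (10.24) and ABCG8 (0.80), which form the sterol exporter of the bile canaliculus as a heterodimer, were both positive, and ABCG2 (-0.90), a drug exporter, was negative in the authors' deposited table. The ABCG5 value is a repeated one, shared with 64 genes including itself. Of the uptake transporters, SLCO2B1 had 0.50 and the prostaglandin transporter SLCO2A1 0.02, while SLCO4C1 had -0.32 and SLCO1B3, a liver uptake transporter, -1.76 in the authors' deposited table.

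**Figure D2:**
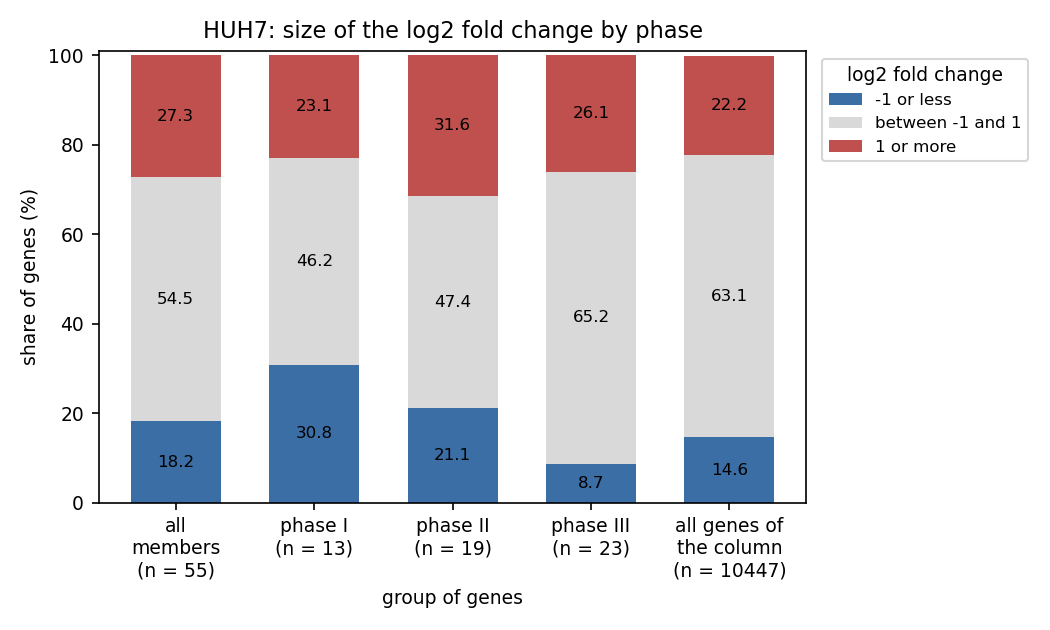
Share of genes (%) in HUH7 with a log2 fold change of -1 or less, between -1 and 1, and 1 or more, for all members, for each phase, and for all genes of the column. Values of -1 or less make up 30.8% of phase I and 8.70% of phase III, against 14.6% of all genes, and values of 1 or more 31.6% of phase II, against 22.2%. Repeated values are included, and they make up all 4 phase I genes at -1 or less and 3 of the 6 phase II genes at 1 or more. Both phase III genes at -1 or less are rows in the second run.

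Set side by side with repeated values included, the phases had like shares of positive values and differed at the extremes. Positive values made up 8 of 13 genes in phase I (61.5%), 14 of 19 in phase II (73.7%) and 15 of 23 in phase III (65.2%), against 60.8% of all genes. Values of 1 or more were held by 3 genes in phase I (23.1%), 6 in phase II (31.6%) and 6 in phase III (26.1%). Values of -1 or less were held by 4 genes in phase I (30.8%), 4 in phase II (21.1%) and 2 in phase III (8.70%). Without repeated values, 8 of 9 genes in phase I, 11 of 14 in phase II and 14 of 22 in phase III were positive. Over all unrepeated genes the share was 64.2%. The count at 1 or more was then 3 in phase I, 3 in phase II and 5 in phase III. The count at -1 or less was then 0 in phase I, 2 in phase II and 2 in phase III, and the medians were 0.71, 0.14 and 0.24, against 0.23 over all unrepeated genes. The repeated values thus hold all 4 large negative values of phase I, and 3 of the 6 large positive and 2 of the 4 large negative values of phase II. With a minimum size of 2 in place of 1, the positive counts were 1, 5 and 3 in phases I, II and III and the negative counts 4, 3 and 0. The shares of all genes at that size are not given here, so these counts are not compared with the column. The 2 phase III genes at -1 or less, SLCO1B3 and ABCC4, both lay in the second run, as did UGT1A4 and UGT1A6 of phase II. Without that run the count at -1 or less was 4 in phase I, 2 in phase II and 0 in phase III, beside 12% of all genes of the first run. The 2 left in phase II were UGT2B11, at a repeated value, and MGST2 (-1.002) in the authors' deposited table.

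Neighbouring genes gave like values in some places and unlike values in others. GSTO1 and GSTO2, 1728 bases apart on chromosome 10, had 0.31 and 0.15 in the authors' deposited table. ABCC1 and ABCC6, 6511 bases apart on chromosome 16, had 2.30 and 1.36 in the authors' deposited table. SULT1A2 and SULT1A1, 8207 bases apart on chromosome 16, had 3.11 and 0.35 in the authors' deposited table. ABCG5 (chromosome 2, 43806211 to 43839231) and ABCG8 (43838971 to 43882988) overlap in the annotation, and their values were 10.24 and 0.80 in the authors' deposited table. Whether reads were counted by strand is not given in the sources used here. On chromosome 4, UGT2A3 (68928463 to 68951804), UGT2B7 (69051375 to 69112987) and UGT2B11 (69199951 to 69224984) had 11.24, 3.89 and -8.75 in the authors' deposited table. Coordinates are those of genes in RefSeq GRCh38.p14, since positions of peaks were not analysed here.

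PLC/PRF/5 members had large values, as did the column. Of 22 members 20 were positive (90.9%), against 90.3% of all genes, 19 had a value of 1 or more (86.4%, against 84.5%), and 2 had a value of -1 or less (9.09%, against 4.47%). A gene with several peaks was given their median, and only ABCC2 had more than 1. The median was 4.44 over the members and 5.45 over all genes, and the middle 50% of the members ran from 2.65 to 8.85, against 2.40 to 8.51. Values of the column fill the range from -2.12 to just under 13 evenly, with 599 to 655 peaks in each of 15 bins of width 1.

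**Figure D3:**
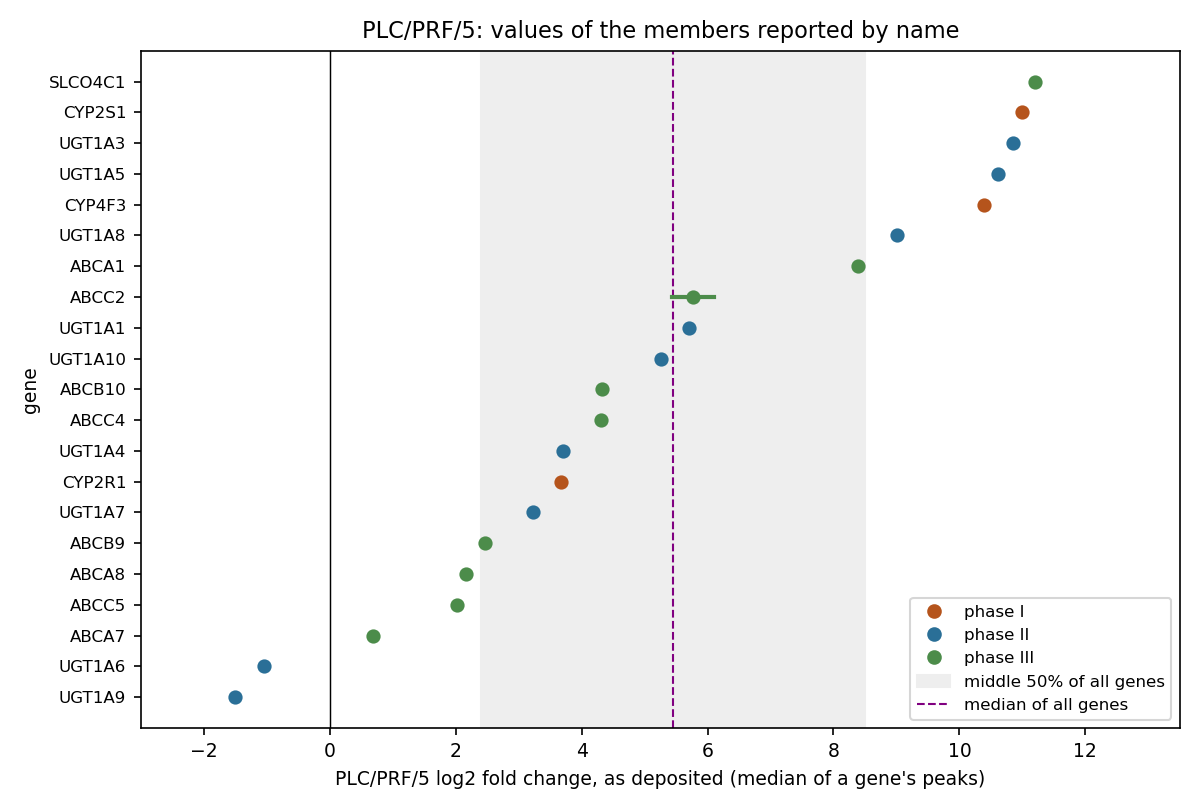
PLC/PRF/5 log2 fold changes as deposited (horizontal axis) for the members reported by name, sorted by value and coloured by phase. Points are medians over a gene's peaks, the bar at ABCC2 joins its 2 peaks, and the grey band and dashed line are the middle 50% and the median of all genes. The only negative points are UGT1A6 and UGT1A9.

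By phase, the PLC/PRF/5 values overlapped over most of the range. In phase I, CYP2S1 had 10.99, CYP4F3 10.39 and CYP2R1 3.68 in the authors' deposited table. The 9 phase II genes were all UGT1A genes and ran from -1.50 to 10.85, with a median of 5.26. In phase III, 10 genes were all positive, with a median of 4.32. SLCO4C1 (11.20), a kidney uptake transporter, and ABCA1 (8.39) led them in the authors' deposited table. ABCC2, the canalicular exporter of bilirubin glucuronide, had peaks at 5.43 and 6.10 in the authors' deposited table. ABCB10 (4.32) and ABCC4 (4.32) lay close together in the authors' deposited table. ABCB9 (2.46), ABCA8 (2.16), ABCC5 (2.02) and ABCA7 (0.69) were the lowest in the authors' deposited table.

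The UGT1A locus holds 9 members at one place and was the only family group with all its genes listed in a line. Its 9 genes lie on the plus strand of chromosome 2 and end at the same base, 233773300, in GRCh38.p14, with starts spread from 155.7 kb (UGT1A8) to 13.03 kb (UGT1A1) before that end. Each gene has a first exon of its own, which encodes the part of the enzyme that binds the compound, spliced to a common set of exons that all of them share. Reads from the common exons cannot be given to any of the genes alone. The sequences around 8 of the starts, from RefSeq GRCh38.p14, are shown because the first exons are the parts in which transcripts of the locus differ. Each runs from 30 bases before the start to 30 bases after it, and capitals mark the bases from the annotated start of that gene onward.
UGT1A8, chr2:233617603-233617662, plus strand: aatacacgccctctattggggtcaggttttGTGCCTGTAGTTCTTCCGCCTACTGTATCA
UGT1A9, chr2:233671868-233671927, plus strand: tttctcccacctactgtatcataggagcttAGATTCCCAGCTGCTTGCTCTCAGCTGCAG
UGT1A7, chr2:233681871-233681930, plus strand: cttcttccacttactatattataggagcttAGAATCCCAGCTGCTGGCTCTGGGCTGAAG
UGT1A6, chr2:233691672-233691731, plus strand: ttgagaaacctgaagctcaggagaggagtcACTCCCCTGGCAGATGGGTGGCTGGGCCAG
UGT1A5, chr2:233712877-233712936, plus strand: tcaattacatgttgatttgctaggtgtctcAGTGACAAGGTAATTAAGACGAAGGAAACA
UGT1A4, chr2:233718706-233718765, plus strand: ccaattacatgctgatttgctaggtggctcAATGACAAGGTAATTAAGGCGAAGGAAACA
UGT1A3, chr2:233729012-233729071, plus strand: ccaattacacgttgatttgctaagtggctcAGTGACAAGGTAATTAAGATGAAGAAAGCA
UGT1A1, chr2:233760240-233760299, plus strand: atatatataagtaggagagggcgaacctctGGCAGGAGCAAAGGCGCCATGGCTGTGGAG

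The sequences around the starts fell into groups, and values within a group were not alike in general. Identity was computed over 300 bases of each start, 250 before and 50 after it, for 28 pairs, and ran from 47.3% to 89.7% with a median of 50.1%. Most of these bases lie before the start and are not part of the transcript that begins there. The identity therefore does not measure how alike the transcripts or their reads are, and its relation to the values was not tested. UGT1A3, UGT1A4 and UGT1A5 were the most alike, at 88.0 to 89.7%, and had 10.85, 3.70 and 10.61 in PLC/PRF/5, by the authors' deposited table. UGT1A7 and UGT1A9, at 78.6%, had 3.22 and -1.50 in the authors' deposited table. UGT1A8 shared 65.5% with UGT1A9 and 64.8% with UGT1A7, and its PLC/PRF/5 value was 9.004 in the authors' deposited table. Each window is fixed on the annotated start, and bases after the UGT1A8 start resemble bases before the UGT1A9 start in the sequences above. The 65.5% and 64.8% thus depend on where the starts are annotated, and identity without that offset was not computed. UGT1A6 and UGT1A1 had no such relative, and their PLC/PRF/5 values were -1.05 and 5.71 in the authors' deposited table. UGT1A10 had 5.26 in the authors' deposited table.

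Across the locus, the values covered much of the range of each column, in HUH7 only through repeated values. In PLC/PRF/5 the 9 genes spanned 12.4 log2 units, in a column filled evenly from -2.12 to just under 13. In HUH7 the 5 listed genes ran from -8.53 (UGT1A4) to 10.73 (UGT1A1) in the authors' deposited table. Both of these ends are repeated values, and the unrepeated values of the locus ran from -2.65 to 0.09. UGT1A8 and UGT1A9, with the starts farthest upstream of those listed in HUH7, had 0.06 and 0.09 in that line, against 9.004 and -1.50 in PLC/PRF/5, by the authors' deposited table. Both HUH7 values of the locus in the second run, UGT1A4 and UGT1A6, were negative, and the 3 in the first run were positive. How the authors divided reads or peaks among these overlapping genes is not given in the sources used here. The UGT1A values are therefore uncertain as values of separate genes. Counted once at its median, the locus left 14 members in PLC/PRF/5, all positive, since the only 2 negative members of that line, UGT1A9 and UGT1A6, belong to it.

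**Figure D4:**
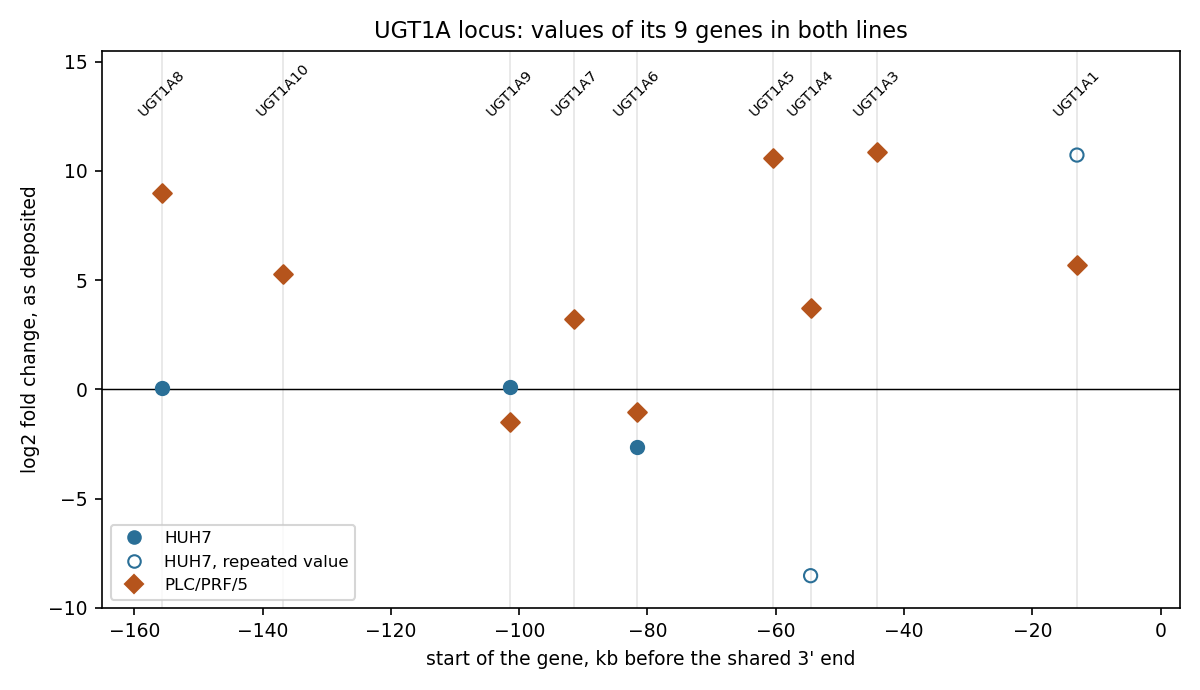
Log2 fold changes as deposited (vertical axis) of the 9 UGT1A genes against the distance of each start from the shared 3′ end in kb (horizontal axis). Circles are HUH7, open where the value is a repeated one, and diamonds are PLC/PRF/5. Values of this locus run from -8.53 to 10.73 in HUH7 and from -1.50 to 10.85 in PLC/PRF/5.

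Between the lines, the share of members with the same sign was near that of all genes, and the difference was not tested. Of the 15 members with a value in both, 9 had the same sign (60.0%), against 56.9% of 3863 genes, taking both columns to run the same way, which is not stated. Positive in both lines were 8 members. CYP2S1 had 1.93 in HUH7 and 10.99 in PLC/PRF/5, ABCA1 had 1.63 and 8.39, and ABCC5 had 1.14 and 2.02 in the authors' deposited table. These were the unrepeated members with a value of 1 or more in both lines. UGT1A1 had 10.73 and 5.71, the first a repeated value, and ABCA7 had 0.87 and 0.69 in the authors' deposited table. ABCB10 (0.14 and 4.32), CYP2R1 (0.01 and 3.68) and UGT1A8 (0.06 and 9.004) were near 0 in HUH7 alone in the authors' deposited table.

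UGT1A6 was the only member negative in both lines, with -2.65 in HUH7 and -1.05 in PLC/PRF/5, by the authors' deposited table. Opposite signs were found for 6 members, 5 of them negative in HUH7: SLCO4C1 (-0.32 in HUH7 and 11.20 in PLC/PRF/5), CYP4F3 (-0.10 and 10.39), ABCC4 (-1.54 and 4.32), UGT1A4 (-8.53 and 3.70) and ABCB9 (-0.48 and 2.46) in the authors' deposited table. UGT1A9 (0.09 and -1.50) was the reverse case in the authors' deposited table. The HUH7 size was under 1 in 4 of these 6, and the HUH7 values of the other 2 lay in the second run.

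**Figure D5:**
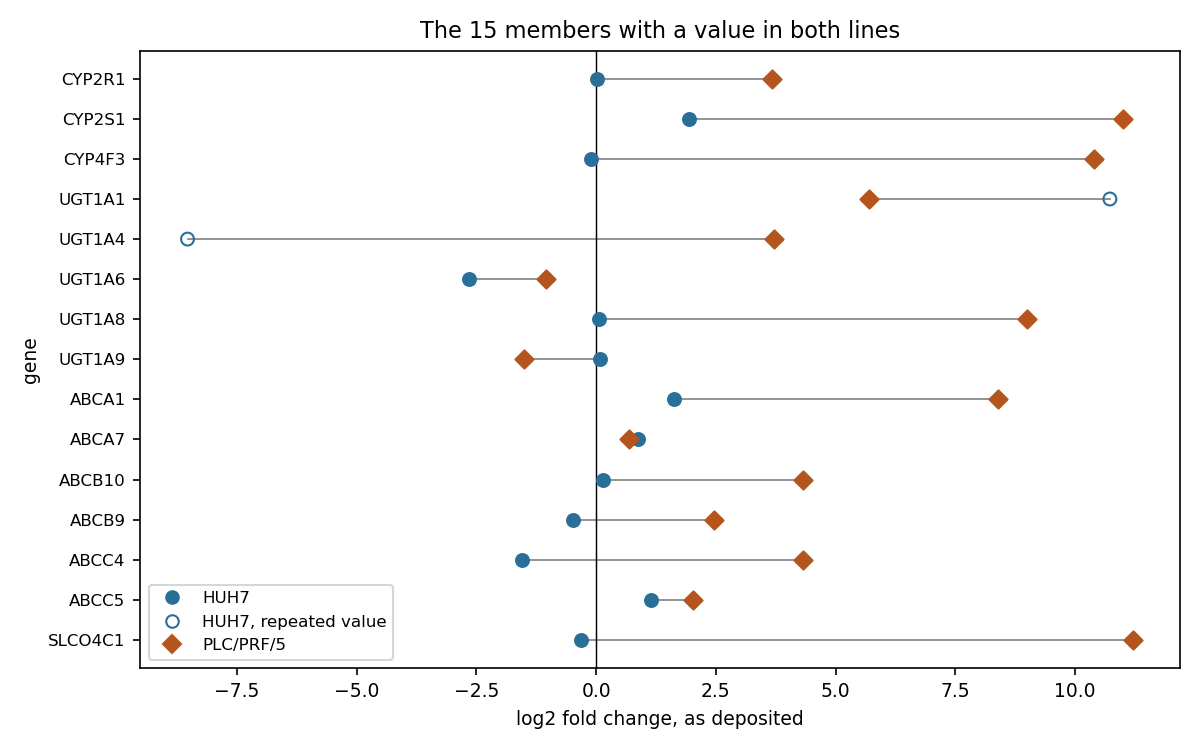
Log2 fold changes as deposited (horizontal axis) for the 15 members with a value in both lines. Circles are HUH7, open where repeated, diamonds are PLC/PRF/5 and the line joins the 2 values of a gene. ABCA7 has nearly the same value in both lines, while SLCO4C1, CYP4F3 and UGT1A4 lie more than 10 log2 units apart.

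Genes that supply or control these enzymes were taken from 5 further lists with 100 genes. In HUH7, 56 had a value, 37 positive and 19 negative, with a median of 0.26, and 10 had a value of 1 or more and 7 of -1 or less. Over all HUH7 genes, 60.8% were positive, 22.2% had a value of 1 or more and 14.6% one of -1 or less, and the median was 0.20. In PLC/PRF/5, 24 of 27 were positive by the median of their peaks, against 90.3% of all genes. Of the 17 nuclear receptors and sensors, 11 were positive and 5 negative in HUH7. NR0B2 (1.52), a repressor induced by bile acids, and NR1I2 (-1.18), the pregnane X receptor that induces CYP3A genes, had the unrepeated values of greatest size by the authors' deposited table. The constitutive androstane receptor gene NR1I3 had 0.07, and the aryl hydrocarbon receptor gene AHR -0.23 in HUH7 and -1.95 in PLC/PRF/5, by the authors' deposited table. Of the other 6 sensors listed in both lines, 5 had a single PLC/PRF/5 peak and were positive in both. RXRA, the partner of many of these receptors, had 0.45 in HUH7 and 6.34 in PLC/PRF/5, and the bile acid receptor gene NR1H4 had 0.43 and 2.54, by the authors' deposited table. The liver factor genes HNF4A (0.18 and 10.94), ONECUT1 (0.95 and 11.44) and the fatty acid sensor PPARA (0.28 and 8.82) are given in the same order from the authors' deposited table. NFE2L2, which drives the oxidative stress response, had 0.57 in HUH7 and PLC/PRF/5 peaks at -1.82, 0.88 and 1.08, by the authors' deposited table.

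Partner enzymes and cofactor supply held HUH7 values of both signs. The P450 electron donors and cofactors had 4 positive and 1 negative HUH7 values, the negative one being POR, beside 60.8% positive over all genes. Their 4 PLC/PRF/5 medians were all positive, beside 90.3% of all genes of that line. POR, which passes electrons to all microsomal P450 enzymes, had -1.96 in HUH7, and FDX1, which serves the mitochondrial ones, had 0.66 in HUH7 and 1.48 in PLC/PRF/5, by the authors' deposited table. Other oxidation, reduction and hydrolysis enzymes had 5 positive and 7 negative HUH7 values (60.8% of all genes were positive), and CBR1 (1.15) and AKR1C1 (-0.97), which both reduce carbonyl groups, were the largest unrepeated ones in the authors' deposited table. Of the genes listed in both lines, ALDH1B1 had 0.44 in HUH7 and 6.14 in PLC/PRF/5, and the carboxylesterase gene CES2 0.56 and 11.89, by the authors' deposited table. CYB5R3 had 0.26 in HUH7 and PLC/PRF/5 peaks of both signs, at -1.97 and 6.08, by the authors' deposited table. Among the oxidation, reduction and hydrolysis enzymes, opposite signs were found for ALDH1A1 (-0.58 and 8.12) and the quinone reductase gene NQO1 (-0.16 and 2.88), by the authors' deposited table. FMO5 had a repeated value of -9.27 in HUH7 and PLC/PRF/5 peaks at 6.70 and 7.61, by the authors' deposited table. CBR1 had 1.15 in HUH7 and PLC/PRF/5 peaks of both signs, at -0.84 and 0.07, by the authors' deposited table. Other conjugation and cosubstrate genes had 8 positive and 6 negative HUH7 values, beside the same 60.8% over all genes. Among them GCLM (3.30), a subunit of the enzyme that starts glutathione synthesis, and the acetyltransferase gene NAT1 (-2.56) had the largest unrepeated HUH7 values in the authors' deposited table. GCLM had 3.43 in PLC/PRF/5, and PAPSS2, which makes the sulfate donor, had 2.31 in HUH7 and 9.91 in PLC/PRF/5, by the authors' deposited table. GCLC, the catalytic subunit beside GCLM, had 0.23 in HUH7 and 12.19 in PLC/PRF/5, HNMT, which methylates histamine, had 0.12 and 3.57, and GGT1, which cleaves glutathione, had -0.36 and 5.43, by the authors' deposited table. Other drug uptake and efflux genes had 9 positive and 0 negative HUH7 values, in a column in which 60.8% of genes were positive. Of these 9, 2 had a value of 1 or more, beside 22.2% of all genes, and 1 of the 9 values was repeated. The largest unrepeated ones were SLC47A1 (2.17), an exporter of cations, and SLC29A2 (0.87), a nucleoside carrier, in the authors' deposited table.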

How the data were processed

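The data were 1 table of the authors' own comparisons, with log2 fold changes for HUH7 and PLC/PRF/5 beside gene names. The unit is a log2 fold change per the file headers, which state no direction. The submitters' processing notes name FastQC 0.12.0 and the build hg38. No aligner, peak caller, scaling, test or filter is given in the sources used here. Depth is unknown and no interval was computed for printed values.

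Members were found by name, and all 55 HUH7 and 22 PLC/PRF/5 names were current RefSeq symbols. Counts and medians were computed with pandas 2.3.3 and NumPy 2.4.6, identities with Biopython 1.88 (global alignment). The member rule and the finding of repeated values and of the second run were tested on simulated data. Protein sequences were not used here, so the planned protein identities were not computed. Each group held 1 library, so no test was run. Members and lists were chosen with earlier results of these data known. Named were members listed in both lines, those of size 1 or more in HUH7, the one nearest 0 and the PLC/PRF/5 extremes per family, and from the lists the 2 largest unrepeated HUH7 values and genes in both lines. Other names were chosen after their values were seen, and the values of a few genes are not reported here, though the counts include them. Alternatives covered gene names, the rule's breadth, repeated values, the minimum size, peak summaries, the second run and the UGT1A locus.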

Additional observations from a re-analysis of the deposited data

Results flagged for a closer look

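Members with opposite signs in HUH7 and PLC/PRF/5 were singled out, and the difference between the lines was not tested, since each line had 1 library per group. In the authors' deposited table these were ABCB9 (-0.48 in HUH7 and 2.46 in PLC/PRF/5), ABCC4 (-1.54 and 4.32), CYP4F3 (-0.10 and 10.39), SLCO4C1 (-0.32 and 11.20), UGT1A4 (-8.53 and 3.70) and UGT1A9 (0.089 and -1.50). Of all 3863 genes with a value in both lines, 1461 were negative in HUH7 and positive in PLC/PRF/5 and 204 the reverse. This takes the ratios of both columns to run alike, about which the header is silent.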

How the results depend on the processing

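Current symbols, broader names, each peak counted once and the largest peak per gene kept all counts within 1.5 times and all medians within their 95% order-statistic interval. Without repeated values, 4 rather than 10 HUH7 members had a value of -1 or less. With a minimum size of 2, 9 rather than 15 HUH7 members had a value at or above it, and with 0.5 no count over all members moved by more than 1.5 times. By phase, a minimum of 2 left 1 rather than 3 phase I genes and 3 rather than 6 phase III genes at or above it, and 0 rather than 2 phase III genes on the negative side. A minimum of 0.5 gave 5 rather than 3 phase I genes at or above it and 4 rather than 2 phase III genes on the negative side. The shares of all genes at a size of 2 or 0.5 are not given here, so these counts are not compared with the column. Without the second run of rows, an alternative chosen after seeing the data, 6 HUH7 members had a value of -1 or less. This is 12% of them, the same share as over all genes of the first run. With the UGT1A locus counted once, also chosen after seeing the data, 0 PLC/PRF/5 members were negative and 0 had a value of -1 or less, against 2 and 2. The cause was not tested beyond what each alternative leaves out. No sign of a median turned. No paired analysis was possible because each group held 1 library.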

Other observations

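ABC genes outside the 4 subfamilies were also listed, and all named here were chosen after their values were seen. ABCD3, a peroxisomal fatty acid transporter, had -3.19 in HUH7 and 11.07 in PLC/PRF/5, by the authors' deposited table. ABCF2 had 0.52 in HUH7 and 12.98 in PLC/PRF/5, and ABCF1 had 0.48, ABCD4 0.28 and ABCF3 0.10 in HUH7 in the authors' deposited table. The excluded sterol enzyme CYP51A1 had 0.86 in HUH7 and peaks at 4.87 and 5.54 in PLC/PRF/5, by the authors' deposited table.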
